A study of Rattus norvegicus with 6 samples.

Results

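Killer lectin-like receptors are the C-type lectin receptors that natural killer (NK) cells use to read other cells. They were taken here as every row of the deposited rat lung count table whose gene symbol starts with Klr or Ly49. The choice gave 32 of 40995 rows, all on chromosome 4 of the rat build mRatBN7.2, and 30 of them lie between Klrb1a and Klra2, in the stretch known as the NK gene complex. Of the 32 rows, 26 had at least 10 counts in 2 or more libraries and are described below. The other 6 (Klrb1, Klrh1, Ly49i2, Ly49i7, Klra5 and Ly49s4) never exceeded 8 counts in a library, and Klrh1 was at 0 throughout.

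The study compared lungs of 3 crTMPRSS2 knockout (KO) rats with lungs of 3 wild type (WT) rats, by poly-A selected RNA sequencing. Both groups were on the outbred Sprague-Dawley background, and neither was treated. The KO rats came from a line in which the Tmprss2 gene, coding for a membrane serine protease, had been edited with CRISPR/Cas9, so the comparison is of that line and not of several independent edits. The labels call the rats biological replicates, while the sources used here do not give sex, age, litter or perfusion of the lungs. Whole lung tissue was sequenced, so fewer NK cells and less receptor RNA per NK cell cannot be told apart.

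The receptors work in opposed pairs. Inhibitory members carry a tyrosine motif that recruits phosphatases and hold the NK cell back when they meet self MHC class I or a lectin-like ligand, while activating members lack that motif and signal through small adaptor proteins such as DAP12 and DAP10. In rodents the Ly49 genes (Klra symbols) supply the MHC class I receptors, CD94 pairs with NKG2 chains to read nonclassical MHC class I, and the NKR-P1 genes (Klrb1 symbols) read lectin-like ligands of the Clec2 family. By symbol and known role, 10 rows were activating, 11 inhibitory, 2 were shared partner chains and 3 were Ly49si rows whose symbols stand for mixed stimulatory and inhibitory features. The remaining 6 were left without a class.

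Total counts were 29933359 to 30514778 in the KO libraries and 33033732 to 36895162 in the WT libraries, and the 32 rows together took 4391 to 4984 counts in KO libraries and 1013, 3749 and 4113 in WT replicates 1 to 3. WT replicate 1 stood apart: its highest correlation with another library over log2(CPM + 1) was 0.960, while the lowest among the other 5 was 0.989. It held 7566 CPM (counts scaled to library size) of 4 striated muscle markers and 3113 CPM of 3 squamous epithelium markers, against at most 41.9 and 3.38 CPM in any other library. It was also the lowest of the 6 libraries for 24 of the 26 described receptors, so every comparison is given with all 6 libraries and without it. Tmprss2 itself was at 46.1, 56.4 and 47.0 CPM in KO replicates 1 to 3, against 50.5, 62.0 and 65.7 CPM in WT replicates 1 to 3, and gene totals of this kind do not show a small edit and so do not check the genotype labels. Lung epithelial markers were abundant in every library (21598 to 23772 CPM summed in KO, 23787 to 34852 CPM in WT).

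Receptor transcripts were sparse but readable. In deposited FPKM (fragments scaled by gene length and by library size), which allow levels of different genes to be compared per length, Klrb1a had the highest mean over the 6 libraries (10.9 FPKM), followed by Klra17 (7.42), Klrd1 (7.30), Klrk1 (5.79), Klri1 (2.71) and Ly49si1 (2.34). The order of these levels differed between the genotypes. In every KO library Klrb1a (14.4 to 17.9 FPKM) and Klrd1 (10.6 to 11.6 FPKM) stood above Klra17 (7.13 to 8.13 FPKM). In every WT library Klra17 was the highest of the 3, at 2.94, 9.14 and 9.56 FPKM in WT replicates 1 to 3, against 1.81, 7.91 and 7.43 FPKM for Klrb1a. All of the other described rows were below the level of Ly49si1.

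**Figure D1:**
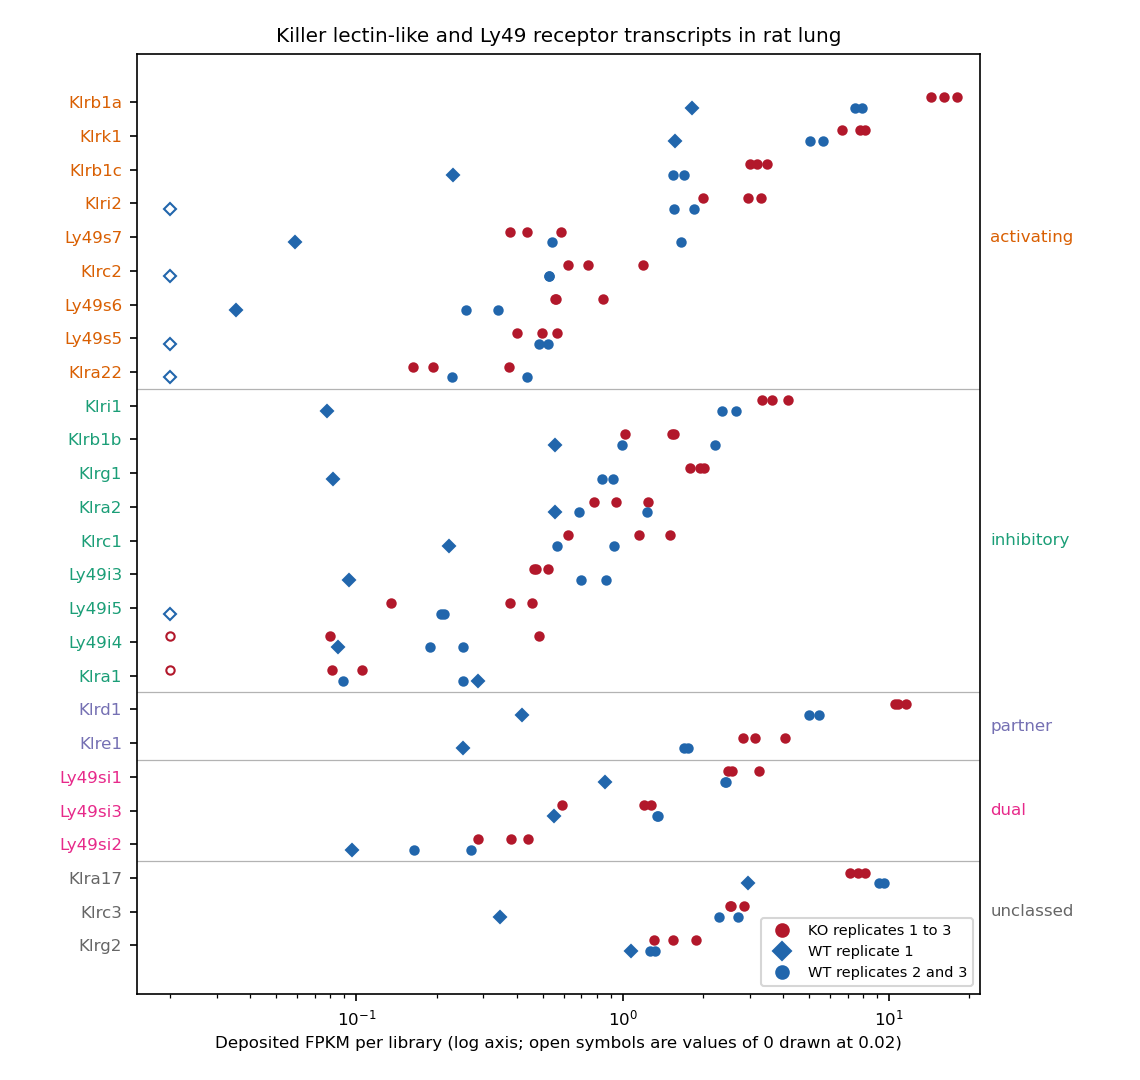
Deposited FPKM of the 26 described receptor rows in each library, on a log axis, with rows grouped by class. Red points are KO replicates 1 to 3, blue points WT replicates 2 and 3 and blue diamonds WT replicate 1, which is the lowest point in 24 of the 26 rows.

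With all 6 libraries, none of the 22 receptors that passed the low-count filter differed between KO and WT in edgeR's quasi-likelihood test at an adjusted p under 0.05, and 0.0542% of all 18464 genes tested did. At an unadjusted p under 0.05 there were 5 receptors (Klrg1, Ly49s6, Klrb1a, Klrb1c and Ly49si2), against 11.3% of all genes. DESeq2 called 1 of them, Klrb1a (adjusted p = 0.0402), and limma called none. The authors' deposited table of 192 genes also lists 1 receptor, Klrb1a, at a log2 fold change of 1.49 and an adjusted p of 0.0259. The KO libraries lay above all 3 WT libraries in 12 of the 22 tested receptors, a pattern seen in 11.4% of all genes.

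Without WT replicate 1, 6 receptors rose in KO lungs and none fell. They were Klrd1 and Klre1 among the partner chains, Klrb1a, Klrb1c and Klrk1 among the activating receptors, and Klrg1 among the inhibitory ones. The 6 were among 25 receptors tested, in a comparison in which edgeR called 3.99% of 18994 genes in either direction and 1.65% as higher in KO. All 6 stood outside the Klra and Ly49 rows, where 4 of 12 tested genes had an unadjusted p under 0.05 and none passed by edgeR, DESeq2 or limma. By class, 3 of 9 activating receptors tested, 1 of 8 inhibitory receptors and 2 of 2 partner chains were called. KO libraries lay above both remaining WT libraries in 12 of the 25, against 17.1% of all genes.

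The calls differed in how much they rested on single libraries. When KO replicate 1, 2 or 3 or WT replicate 2 or 3 was also left out, the number of receptors called was 3, 2, 4, 2 and 3, in that order. Klrd1 and Klrb1a were called in all 5 of these fits.

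**Figure D2:**
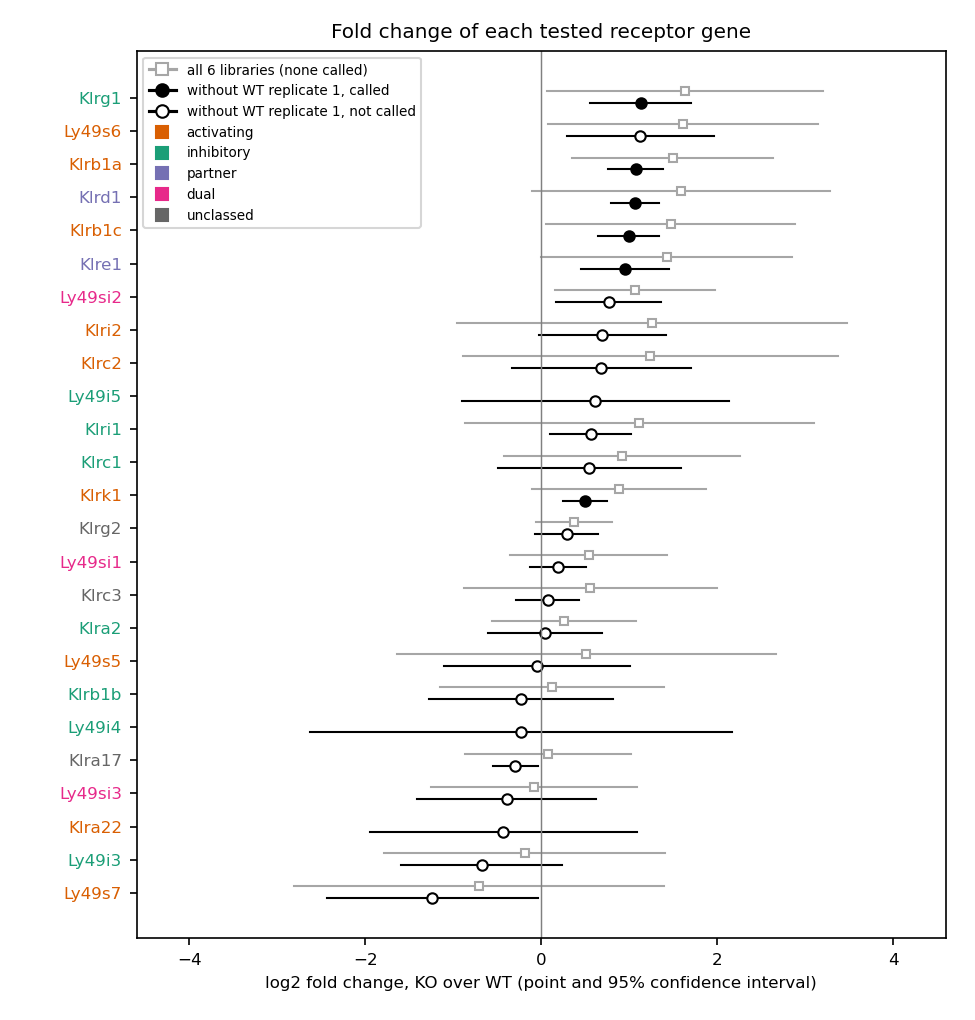
log2 fold change (KO over WT) of each tested receptor with its 95% confidence interval. Grey squares are the fits with all 6 libraries, none of them called, and circles the fits without WT replicate 1, filled for the 6 receptors that were called. Gene names are coloured by class.

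Both partner chains rose in KO lungs once WT replicate 1 was left out. Klrd1 encodes CD94, which has no signalling tail of its own and carries the NKG2 chains to the surface, and it lies at chr4:163044920-163056568 on the plus strand. It stood at 18.0, 16.9 and 16.4 CPM in KO replicates 1 to 3, against 0.643, 8.50 and 7.80 CPM in WT replicates 1 to 3. Every KO library was above every WT library, and the 3 KO values sat close together. The log2 fold change was 1.07 (SE 0.12, edgeR adjusted p = 0.0017) without WT replicate 1 and 1.59 (SE 0.72, edgeR adjusted p = 0.455) with all 6 libraries. Klre1, just upstream at chr4:163032938-163041641 on the plus strand, pairs in the rat with KLRI1 or KLRI2. It had 6.67, 4.63 and 5.17 CPM in KO replicates 1 to 3 and 0.406, 2.90 and 2.79 CPM in WT replicates 1 to 3, again without overlap. Its log2 fold change was 0.95 (SE 0.22, edgeR adjusted p = 0.0462) without WT replicate 1, and the adjusted p was 0.136, 0.0812, 0.0791, 0.157 and 0.161 when KO replicate 1, 2 or 3 or WT replicate 2 or 3 was left out as well.

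The NKR-P1 receptors included both opposed members of a pair. Klrb1a (NKR-P1A), the activating receptor by which rat NK cells have long been recognised, lies at chr4:161890577-161904050 on the minus strand, and Klrb1b (NKR-P1B), its inhibitory relative, at chr4:161949061-161961505 on the same strand. Their promoter windows are shown because the genes are neighbours with related sequence and opposite signalling, and that of Klrk1 because it is the other activating receptor called in KO lungs whose window holds the same letters. Each window is from RefSeq on build GRCr8, covers 250 bases before to 50 after the gene start, and is on the minus strand (Klrb1a chr4:163590098-163590397, Klrb1b chr4:163647580-163647879, Klrk1 chr4:164778333-164778632). Capitals mark the letters TCACAC, a core of sites for T-box factors such as T-bet and Eomes, read here on the other strand as GTGTGA.
Klrb1a: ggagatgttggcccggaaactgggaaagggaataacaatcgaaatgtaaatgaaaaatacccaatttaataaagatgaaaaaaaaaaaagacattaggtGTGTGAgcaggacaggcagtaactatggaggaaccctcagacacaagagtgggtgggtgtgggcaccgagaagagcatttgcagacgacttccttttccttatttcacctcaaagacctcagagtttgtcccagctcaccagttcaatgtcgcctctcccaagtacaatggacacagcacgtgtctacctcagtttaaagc
Klrb1b: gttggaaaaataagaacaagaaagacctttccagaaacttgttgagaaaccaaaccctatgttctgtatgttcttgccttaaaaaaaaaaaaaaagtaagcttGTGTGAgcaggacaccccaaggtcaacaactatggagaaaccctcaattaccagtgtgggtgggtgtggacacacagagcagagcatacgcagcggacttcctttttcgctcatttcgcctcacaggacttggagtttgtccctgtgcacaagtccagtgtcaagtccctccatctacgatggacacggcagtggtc
Klrk1: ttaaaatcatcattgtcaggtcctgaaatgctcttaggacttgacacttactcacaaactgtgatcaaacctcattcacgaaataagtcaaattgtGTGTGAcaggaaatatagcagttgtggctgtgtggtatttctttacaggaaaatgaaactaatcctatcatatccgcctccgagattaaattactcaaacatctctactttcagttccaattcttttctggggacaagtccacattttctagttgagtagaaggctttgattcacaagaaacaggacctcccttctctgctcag
The Klrb1a and Klrb1b windows were 65.0% identical in a global alignment. The median was 50.2% over 258 pairs of receptor windows that were not both Ly49 or Klra. On either strand TCACAC stood in these 3 of the 28 receptor windows in RefSeq, against 13.7% of all 33469 windows. The RUNX letters TGTGGT stood in 6 of the 28 windows, against 17.3% of all, and the STAT letters TTCNNNGAA in 5, against 8.87%. A match of letters is a description and shows no binding.

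Klrb1a was higher in KO lungs, and Klrb1b was not called. Klrb1a had 16.4, 18.3 and 14.7 CPM in KO replicates 1 to 3, against 1.83, 8.08 and 7.59 CPM in WT replicates 1 to 3, with no overlap. Its log2 fold change was 1.07 (SE 0.14, edgeR adjusted p = 0.0031) without WT replicate 1 and 1.49 (SE 0.48, edgeR adjusted p = 0.350) with all 6 libraries. Klrb1b stood at 1.04, 0.694 and 1.05 CPM in KO replicates 1 to 3, against 0.372, 1.51 and 0.670 CPM in WT replicates 1 to 3. The 2 groups overlapped, and its log2 fold change without WT replicate 1 was -0.22 with a 95% interval of -1.27 to 0.82. An uncharacterised gene overlaps Klrb1b on the opposite strand, and reads of the pair cannot be separated unless the counting used strand.

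Klrb1c (RefSeq synonym NKR-P1F, an activating receptor in the rat), at chr4:162380773-162394688 on the plus strand, rose by a similar amount. It had 9.94, 10.8 and 9.31 CPM in KO replicates 1 to 3, against 0.711, 4.80 and 5.28 CPM in WT replicates 1 to 3. The lowest KO library was well above the highest WT library. Its log2 fold change without WT replicate 1 was 0.99 (SE 0.16, edgeR adjusted p = 0.0087), and the adjusted p was 0.0519 and 0.0594 when KO replicate 2 or WT replicate 2 was also left out.

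Klrk1 encodes NKG2D, an activating receptor for stress-induced MHC-like ligands that is found on NK cells and many CD8 T cells. It lies at chr4:163079887-163092434 on the minus strand. Its level was 27.5, 26.5 and 22.6 CPM in KO replicates 1 to 3, against 5.25, 19.1 and 17.1 CPM in WT replicates 1 to 3. The groups did not overlap, but the gap was smaller than for Klrd1 or Klrb1a. The log2 fold change without WT replicate 1 was 0.50 (SE 0.11, edgeR adjusted p = 0.0380). That call was lost when KO replicate 1 (adjusted p = 0.119), KO replicate 2 (0.141), WT replicate 2 (0.0857) or WT replicate 3 (0.177) was also left out of the edgeR fit.

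Of the remaining activating receptors outside the Ly49 genes, neither was called. Klri2, which pairs with KLRE1 as an activating receptor in the rat, had 2.49, 2.81 and 1.69 CPM in KO replicates 1 to 3, against 0, 1.57 and 1.31 CPM in WT replicates 1 to 3. Klrc2 (RefSeq synonym rNKG2C), the activating partner of CD94, had 0.971, 0.820 and 1.56 CPM in KO replicates 1 to 3, against 0, 0.694 and 0.697 CPM in WT replicates 1 to 3. Every KO library was above every WT library for both genes. Without WT replicate 1 the log2 fold changes were 0.69 (SE 0.32) for Klri2 and 0.68 (SE 0.46) for Klrc2, with edgeR adjusted p of 0.302 and 0.497.

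Among inhibitory receptors outside the Ly49 genes, Klrg1 rose and 3 others were not called. Klrg1, a receptor for cadherins carried by mature NK cells and effector T cells, lies at chr4:155455465-155467301 on the minus strand. It had 3.27, 2.99 and 3.38 CPM in KO replicates 1 to 3, against 0.135, 1.54 and 1.39 CPM in WT replicates 1 to 3. The 3 KO values were close to each other and above all WT values. Its log2 fold change without WT replicate 1 was 1.13 (SE 0.26, edgeR adjusted p = 0.0405), and the adjusted p was 0.103, 0.108, 0.0990, 0.128 and 0.150 when KO replicate 1, 2 or 3 or WT replicate 2 or 3 was also left out. Klri1, the inhibitory partner of KLRE1 in the rat, had 5.50, 4.82 and 4.40 CPM in KO replicates 1 to 3 and 0.102, 3.53 and 3.11 CPM in WT replicates 1 to 3. These groups did not overlap either, and the log2 fold change without WT replicate 1 was 0.57 (SE 0.21, edgeR adjusted p = 0.181). Klrc1 (rNKG2A), the inhibitory partner of CD94, had 1.845, 1.419 and 0.765 CPM in KO replicates 1 to 3, against 0.271, 1.15 and 0.697 CPM in WT replicates 1 to 3. Its groups overlapped, and the log2 fold change without WT replicate 1 was 0.55 with a 95% interval of -0.49 to 1.59.

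Klrc3 and Klrg2 were given no class. Klrc3, an NKG2 chain, had 6.99, 7.09 and 7.88 CPM in KO replicates 1 to 3, against 0.948, 6.36 and 7.53 CPM in WT replicates 1 to 3, so the KO libraries overlapped with WT replicate 3. Its log2 fold change without WT replicate 1 was 0.08 (95% interval -0.28 to 0.44). Klrg2, which lies far from the NK gene complex at chr4:67360216-67374867 on the minus strand, had 16.8, 13.7 and 11.6 CPM in KO replicates 1 to 3 and 9.45, 11.2 and 11.8 CPM in WT replicates 1 to 3. WT replicate 1 was much closer to the other libraries for Klrg2 than for any receptor called without WT replicate 1.

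**Figure D3:**
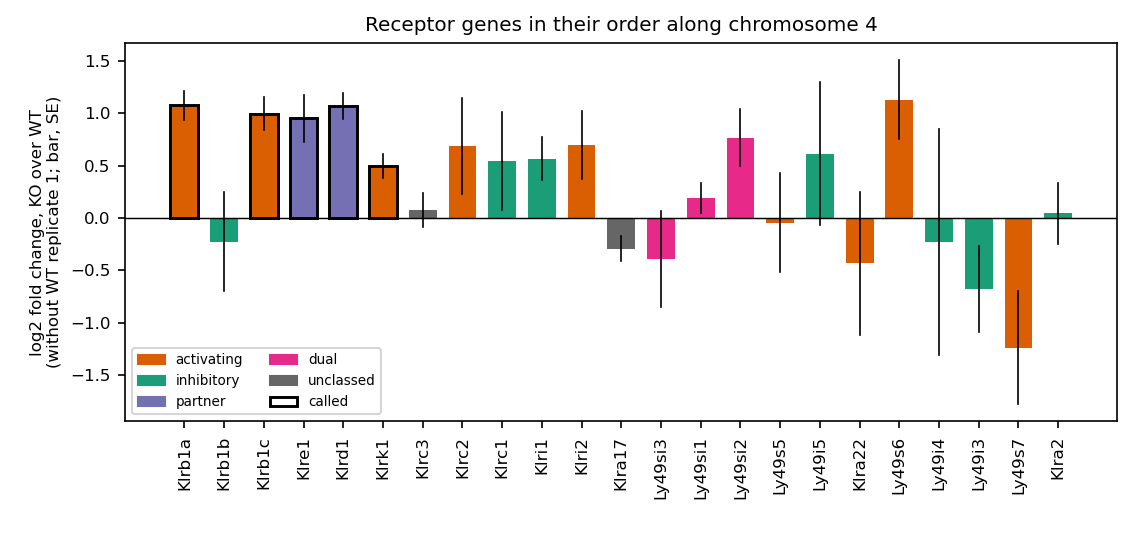
log2 fold change (KO over WT, without WT replicate 1) of the tested receptors from Klrb1a to Klra2 in their order along chromosome 4, with SE as the error bar and class as the colour. Outlined bars mark called receptors, which lie in the segment from Klrb1a to Klrk1; values in the Ly49 segment from Klra17 onward lie on either side of 0.

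The Ly49 and Klra rows did not move together. None was called in either comparison, and their log2 fold changes without WT replicate 1 ranged from -1.24 (Ly49s7) to 1.13 (Ly49s6) among the 12 tested, with 5 above 0 and 7 below. Over the 13 described, the median was -0.23 without WT replicate 1 and 0.12 with all 6 libraries. Over the 13 described Klr rows outside the Ly49 genes it was 0.68 and 1.24, and over all 19375 genes past the same count rule 0.00 and -0.00. The difference between the 2 sets of receptors was not tested.

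The most abundant Ly49 row was Klra17, for which no class was taken. The row carries the gene ID that RefSeq on GRCr8 names as a LOC gene, while RefSeq's own Klra17 is another row of the table, so the name is uncertain. It had 13.0, 14.0 and 12.2 CPM in KO replicates 1 to 3, against 4.98, 15.7 and 16.4 CPM in WT replicates 1 to 3. KO libraries were therefore above WT replicate 1 and below WT replicates 2 and 3. The log2 fold change was -0.29 (SE 0.12, edgeR adjusted p = 0.222) without WT replicate 1 and 0.08 (SE 0.40, edgeR adjusted p = 0.933) with all 6 libraries.

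The 3 Ly49si rows differed from each other. Ly49si1 had 12.4, 16.3 and 12.9 CPM in KO replicates 1 to 3, against 4.23, 12.1 and 12.2 CPM in WT replicates 1 to 3. Ly49si2 had 6.44, 5.61 and 4.21 CPM in KO replicates 1 to 3, against 1.39, 2.41 and 3.94 CPM in WT replicates 1 to 3. Ly49si3 had 1.04, 0.977 and 0.478 CPM in KO replicates 1 to 3, against 0.440, 1.09 and 1.10 CPM in WT replicates 1 to 3. KO libraries lay above WT libraries for the first 2 and within the WT range for Ly49si3, and without WT replicate 1 they differed on the log2 scale by 0.19 (SE 0.14) for Ly49si1, 0.77 (SE 0.27) for Ly49si2 and -0.39 (SE 0.46) for Ly49si3, none of them called. The promoter windows of Ly49si2 (chr4:165397220-165397519, minus strand, GRCr8) and Ly49si3 (chr4:165188046-165188345, minus strand, GRCr8) are shown because they were the most alike pair of receptor windows. Capitals mark the bases that differ.
Ly49si2: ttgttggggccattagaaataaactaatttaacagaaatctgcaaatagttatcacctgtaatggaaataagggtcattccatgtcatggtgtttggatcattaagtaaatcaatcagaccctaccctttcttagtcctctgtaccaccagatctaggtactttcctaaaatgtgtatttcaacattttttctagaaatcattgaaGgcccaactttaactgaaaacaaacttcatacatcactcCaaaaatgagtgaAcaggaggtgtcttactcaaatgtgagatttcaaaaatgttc
Ly49si3: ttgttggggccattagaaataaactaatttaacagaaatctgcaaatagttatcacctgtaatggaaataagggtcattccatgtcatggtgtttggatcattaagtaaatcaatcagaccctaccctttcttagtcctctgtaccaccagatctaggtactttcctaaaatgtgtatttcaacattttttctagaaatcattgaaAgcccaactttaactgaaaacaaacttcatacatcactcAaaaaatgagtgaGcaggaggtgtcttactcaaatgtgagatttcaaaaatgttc
The 2 windows were 99.0% identical, with 3 differing bases in 300 and no gap. Over 120 pairs of Ly49 and Klra windows, the median identity was 51.3%, and 1 pair reached 90%. The median was 50.2% over the 258 other pairs of receptor windows, so most Ly49 and Klra pairs were not near-identical here. How the authors' counting treated reads that match several copies was not stated, so values of near-identical Ly49 rows are uncertain. The annotated span of Ly49si2 also overlaps 3 other rows on the same strand, and that of Ly49s7 lies within Klra5.

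Stimulatory and inhibitory Ly49 rows with low counts went in both directions. Ly49s6, named stimulatory, had 2.46, 1.64 and 1.63 CPM in KO replicates 1 to 3, against 0.102, 0.995 and 0.751 CPM in WT replicates 1 to 3, and its log2 fold change without WT replicate 1 was 1.13 (SE 0.37), with an edgeR adjusted p of 0.141. Ly49s7, also named stimulatory, had 0.680, 0.441 and 0.510 CPM in KO replicates 1 to 3, against 0.0677, 0.633 and 1.93 CPM in WT replicates 1 to 3. WT replicate 3 alone was far above the other libraries for Ly49s7. Ly49i3, named inhibitory, had 0.680, 0.694 and 0.765 CPM in KO replicates 1 to 3, against 0.135, 1.27 and 1.02 CPM in WT replicates 1 to 3, so that KO was below both remaining WT libraries once replicate 1 was left out. Klra2 (RefSeq synonym Ly49i8), named inhibitory, had 4.05, 3.37 and 5.33 CPM in KO replicates 1 to 3 and 2.37, 5.31 and 2.95 CPM in WT replicates 1 to 3, with the groups overlapping. Ly49s5, Ly49i4, Ly49i5 and Klra22 stayed below 0.9 CPM in every library, and Klra1 had at most 10 counts and was not tested in either comparison.

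The balance of activating to inhibitory receptors was read within each library, where scaling between libraries does not enter. Summed FPKM of the 9 described activating members over that of the 9 inhibitory members was 2.86, 3.75 and 3.03 in KO replicates 1 to 3, against 1.89, 2.03 and 2.83 in WT replicates 1 to 3. The lowest KO value was just above the highest WT value. That gap was not kept with summed CPM (3.30 in KO replicate 3, against 3.35 in WT replicate 3). It was also not kept with Klrc3 counted as activating (3.08 in KO replicate 1, against 3.23 in WT replicate 3). Klrb1a alone gave 16.1, 17.9 and 14.4 of the 33.2, 35.0 and 28.8 activating FPKM in KO replicates 1 to 3. In WT replicates 1 to 3, Klrb1a gave 1.81, 7.91 and 7.43 of 3.70, 19.3 and 18.9 FPKM. The ratio without Klrb1a was not taken. Ratios between single genes were not planned in advance. Klrb1a over Klrb1b was 10.5, 17.5 and 9.24 in KO replicates 1 to 3, against 3.25, 3.55 and 7.50 in WT replicates 1 to 3. A 2-sided exact permutation test of this ratio gave p = 0.1, the smallest 3 against 3 libraries allow. Klrc2 over Klrc1 overlapped between the groups, at 0.492 to 1.91 in KO libraries and 0 to 0.935 in WT libraries. Klri2 over Klri1 overlapped as well, at 0.601 to 0.910 in KO libraries and 0 to 0.696 in WT libraries. Klra17 over Klrd1, a pair chosen after its values were seen, was 0.658, 0.752 and 0.676 in KO replicates 1 to 3, against 7.03, 1.67 and 1.91 in WT replicates 1 to 3. The Klra and Ly49 rows made up 21.2% to 22.1% of summed receptor FPKM in KO libraries, against 45.6%, 33.5% and 36.4% in WT replicates 1 to 3. Their own sum was 14.1 to 16.6 FPKM in KO libraries and 5.57, 17.7 and 18.2 FPKM in WT replicates 1 to 3. The other Klr rows summed to 52.6 to 60.3 FPKM in KO libraries, against 6.64, 35.0 and 31.8 FPKM in WT replicates 1 to 3. Klrc3 over Klrd1, also chosen after its values were seen, was 0.218, 0.236 and 0.269 in KO replicates 1 to 3 and 0.827, 0.420 and 0.542 in WT replicates 1 to 3. Klrc1 over Klrd1 overlapped between the groups, at 0.0589 to 0.1299 in KO libraries and 0.113 to 0.532 in WT libraries. Over 6 ratios tested, the adjusted p of the permutation test was 0.12 at the lowest. Gene ratios that were 0 in WT replicate 1 were not tested. No ratio could have passed, because 3 against 3 libraries allow no p below 0.1. The test therefore could not decide whether any ratio differed between KO and WT.

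**Figure D4:**
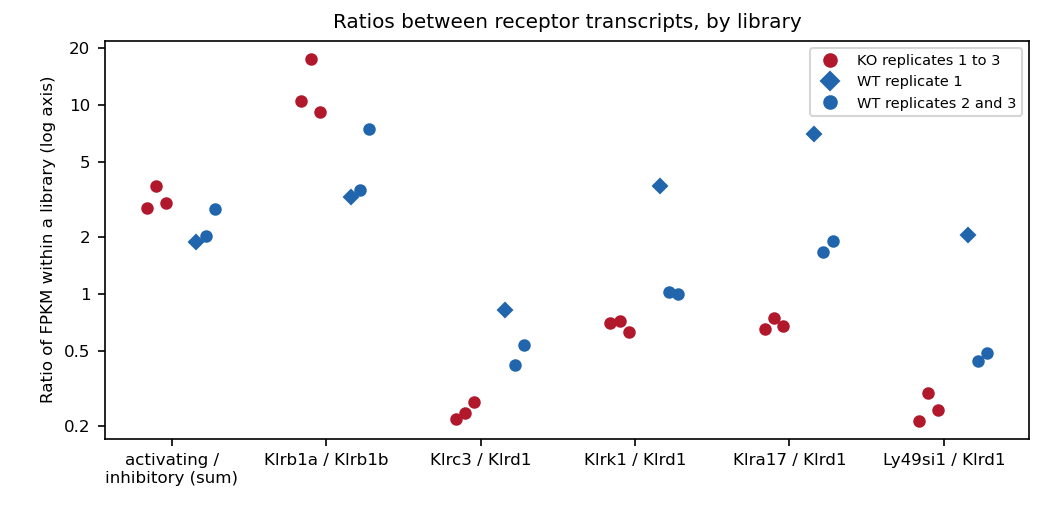
Ratios of FPKM between receptor transcripts within each library, on a log axis, with red points for KO replicates 1 to 3, blue points for WT replicates 2 and 3 and blue diamonds for WT replicate 1. KO libraries lie above WT libraries for Klrb1a over Klrb1b. Klrc2 over Klrc1 and Klri2 over Klri1, which overlapped between the groups, are not drawn. They lie below WT libraries for the 4 ratios to Klrd1 that are drawn (Klrc3, Klrk1, Klra17 and Ly49si1). These 4 share Klrd1, itself called higher in KO without WT replicate 1, and are not 4 separate results.

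The genes that pass on the signal of these receptors, or serve as their ligands, were mostly not called. Of 72 rows chosen as adaptors, phosphatases, signalling genes and ligands, 55 were tested. None was called with all 6 libraries by edgeR, and DESeq2 called 2. Without WT replicate 1, 6 of the 55 rose and none fell, where 1.65% of all genes were called higher in KO, and 2 to 3 were called when a further library was left out (3, 2, 3, 3 and 3 without KO replicate 1, 2 or 3 or WT replicate 2 or 3). The risen genes were Zap70 (0.55), a kinase of receptors with a tyrosine activation motif, the kinase subunit Pik3cd (0.47), the phospholipase Plcg2 (0.41), the adaptors Lat (0.67) and Lat2 (0.65), and RT1-N3 (0.33), an MHC class I row, as log2 fold changes with edgeR adjusted p of 0.0059 to 0.0473. The receptor adaptors were not called. Tyrobp (DAP12) had a log2 fold change of 0.23 and Hcst (DAP10) of -0.20, with edgeR adjusted p of 0.234 and 0.677. The lectin ligand Clec2g, whose RefSeq synonym Clr-b names the ligand of Klrb1b, was at a log2 difference of 0.25 (edgeR adjusted p = 0.396), and Cdh1 (E-cadherin, a ligand of Klrg1) of 0.05 (edgeR adjusted p = 0.757). Of 26 RT1 rows tested, 1 was called, and values of RT1 rows with near-identical copies are uncertain, since the treatment of reads that match several copies was not stated.

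Other NK cell genes rose beside the receptors. Of 34 chosen, 32 were tested without WT replicate 1, and 11 rose and 1 (Itga2) fell. Over all 18994 genes tested, 1.65% were called higher in KO and 3.99% in either direction. The median log2 fold change was 0.47 over the 32, against 0.00 over all genes tested. With all 6 libraries none of 31 passed by edgeR, and DESeq2 called 4. The genes with the smallest p were Prf1 (perforin, 0.97), Tbx21 (T-bet, 1.13), Il2rb (0.84) and Gzmk (0.95), as log2 fold changes. The 7 NK markers summed to 193 to 197 CPM in KO libraries. In WT replicates 1 to 3 they summed to 22.4, 104 and 107 CPM. All 7 lay above 0 in the fit without WT replicate 1, with 5 called. They are part of the 34 genes and not separate from them. Of the 32 tested, 24 lay above 0 and 8 below, none of the 8 among these markers.

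Among other lymphocytes, all 4 B cell markers were called higher in KO lungs without WT replicate 1, as were 1.65% of all genes. All 8 T cell markers lay above 0 with and without WT replicate 1, but only 1 was called. Innate lymphoid markers were mixed, with 2 above 0 and 2 below without WT replicate 1. The 8 T cell markers summed to 179 to 203 CPM in KO libraries, against 143 to 156 CPM in WT libraries. Of the 8, 1 (Cd8a, log2 fold change 0.88, edgeR adjusted p = 0.0020) was called. Cd4 was the largest part of the sum. It had 96.5 to 100 CPM in KO libraries and 119, 94.1 and 83.6 CPM in WT replicates 1 to 3. The log2 fold change of Cd4 without WT replicate 1 was 0.16, against a median of 0.48 over the 8. The 4 B cell markers summed to 85.5 to 103 CPM in KO libraries, against 29.2, 63.7 and 51.6 CPM in WT replicates 1 to 3, and 4 of 4 rose. The 4 innate lymphoid markers summed to 330 to 348 CPM in KO libraries and 310, 255 and 210 CPM in WT replicates 1 to 3, with 2 of 4 called (Gata3 and Kit, both higher). Kit made up most of that sum, at 252 to 272 CPM in KO libraries, while Il7r had 24.02 to 25.80 CPM in KO libraries, against 27.0 and 27.7 CPM in WT replicates 2 and 3, and Rora had a log2 fold change of -0.18. None of the NK, T, B or innate lymphoid markers was at 0 in any library, and the part of any of these cell types, or of the muscle and squamous RNA of WT replicate 1, in the receptor values was not tested.

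**Figure D5:**
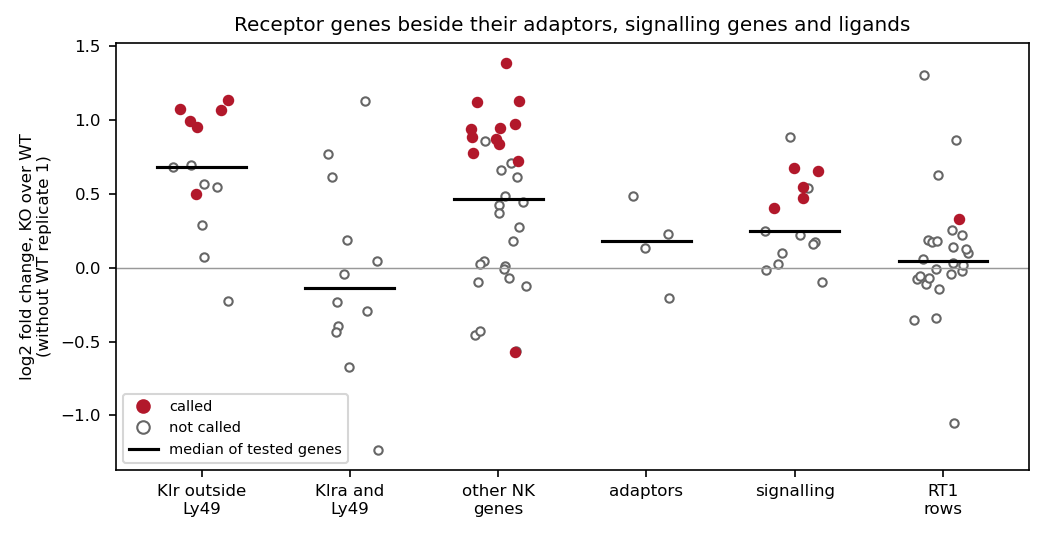
log2 fold change (KO over WT, without WT replicate 1) of each tested gene in 6 gene lists, with called genes filled in red and the median as a black line. Klr rows outside the Ly49 genes and other NK genes hold most of the called genes, and the adaptors hold none.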

How the data were processed

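Lung RNA of 3 KO and 3 WT Sprague-Dawley rats was sequenced as paired reads. For each library the authors deposited unnormalised counts and FPKM values by gene, and a table of their own log2 fold changes and p-values. The submitters' processing notes name featureCounts 2.0.6, HISAT2 2.2.1, DESeq2 1.42.0, StringTie 2.2.3 and CASAVA, with build mRatBN7.2 but without roles, strand setting or treatment of multi-mapped reads. Among low counts, even values outnumber odd ones (3171 against 1641 in WT replicate 1), as when both mates are counted, so independent fragments are fewer than counts. Members and lists were chosen with earlier results of these data known.

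Counts were analysed in edgeR 4.0.16 (R 4.3.3) with TMM, filterByExpr (minimum count 10, total 15), a quasi-likelihood fit on genotype alone (glmQLFit, glmQLFTest) and Benjamini-Hochberg adjusted p-values over all genes tested at 0.05, for 6 libraries and for 5 without WT replicate 1. CPM uses TMM library sizes. Every log2 fold change and SE is from edgeR unless a tool is named. Receptors called, and then those with the highest mean FPKM, are named with all library values, and up to 4 genes of smallest p come from each other list, plus any with a known role beside a receptor. P-values set the difference between the groups against the spread between these animals' libraries. The edgeR fits were tested on simulated data with known changes in well-counted genes, with 10 simulations for each comparison. Without WT replicate 1, unchanged genes made up 6.12% to 13.1% of calls, above the nominal share of 0.05 in each simulation. With all 6 libraries they made up 4.38% to 11.3% of calls.

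Alternatives were RLE and upper quartile scaling, DESeq2 1.42.0, limma 3.58.1 (voom, and log2 FPKM with pseudocounts 1 and 0.1), other filters, a replicate block and leaving out libraries. Same-numbered KO and WT libraries did not deviate together (r = -0.12, 0.05 and -0.12). RefSeq GRCr8 gave names and promoter windows, with 28 of 32 receptors matched to a window. Promoter pairs were aligned with biopython 1.88.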

Additional observations from a re-analysis of the deposited data

How the results depend on the processing

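With all 6 libraries, DESeq2 called 501 genes, 1 receptor, 2 adaptor, ligand or signalling genes and 4 other NK genes, and the replicate block, which the correlations do not support as pairing, called 2 genes. Leaving out 1 library gave 1 to 758 genes, 0 to 6 receptors, 0 to 6 adaptor, ligand or signalling genes and 0 to 12 other NK genes, with the high values coming from the fit without WT replicate 1. Without WT replicate 1, DESeq2 called 1188 genes, limma on log2(FPKM + 1) called 180 (2 of the adaptor, ligand and signalling genes and 7 other NK genes), and limma on log2(FPKM + 0.1) called 236 (2 of the adaptor, ligand and signalling genes). With no filter 1707 genes and 12 adaptor, ligand or signalling genes passed, and with the replicate block 3 receptors and 3 adaptor, ligand or signalling genes. Leaving out a further library gave 233 to 522 genes, 2 to 4 receptors, 2 to 3 adaptor, ligand or signalling genes and 9 to 11 other NK genes.

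Signs changed in receptors that were not called. With all 6 libraries, Ly49i3 reached 0.24 with limma-voom, 0.15 with limma on log2(FPKM + 0.1) and 0.12 with the replicate block, and Ly49s7 reached 0.10 with limma-voom. Leaving out 1 of 6 libraries gave -0.39 to 0.19 for Ly49si3, -0.29 to 0.34 for Klra17, -0.22 to 0.82 for Klrb1b, -0.045 to 0.96 for Ly49s5, -0.68 to 0.28 for Ly49i3 and -1.24 to 0.61 for Ly49s7. Without WT replicate 1, leaving out a further library gave -0.41 to 0.36 for Ly49i4, -0.32 to 0.53 for Klra2, -0.17 to 0.084 for Ly49s5, -0.039 to 0.20 for Klrc3, -0.70 to 0.47 for Klrb1b and -0.83 to 0.10 for Klra22. The cause was not tested. The class medians and the activating to inhibitory ratio moved by less than 1 SD under every alternative run for them. Those included 2 chosen after seeing the data (Klrc3 counted as activating, and Klrk1 left out, log2 difference 0.48 and 0.72 against 0.53). The SD of library medians included WT replicate 1, and was 1.21 for the activating and 0.93 for the Ly49 members. Moves within 1 SD can therefore be large. Without that library the activating median went from 1.24 to 0.68 and the Ly49 median from 0.12 to -0.23. Depth limits the Ly49 rows most, several of which had fewer than 1 CPM.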

Other observations

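Rows outside the symbol rule also held receptor-like counts. On chromosome 4, 14 rows with LOC symbols had descriptions that named a killer cell lectin-like, Ly49 or NKG2 gene. Of these, 7 had at least 10 counts in 2 or more libraries. Together they held 499, 430 and 475 counts in KO replicates 1 to 3, against 118, 475 and 490 counts in WT replicates 1 to 3. The most counted of them was described as YE1/48-like, a Ly49 type name, with a log2 fold change of -0.15 (edgeR adjusted p = 0.751) without WT replicate 1.

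Rrlt, a RAE-1-like gene whose family serves as ligands of NKG2D, was chosen after its values were seen. It had 0.388, 0.284 and 0.351 CPM in KO replicates 1 to 3, against 0.813, 1.18 and 1.07 CPM in WT replicates 1 to 3. The groups did not overlap, and its log2 fold change was -1.57 (edgeR adjusted p = 0.256) with all 6 libraries and -1.71 (edgeR adjusted p = 0.0855) without WT replicate 1.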
